A study of Mus musculus with 6 samples.

Results

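A set of 6 genes of the E13.5 mouse cortex were examined whose level in every Ybx1 conditional knockout (cKO) library lay on one side of every wild-type (WT) library. They were Pgap1, Nkiras2, Arl5b and Asb1, which were lower in cKO, and Thsd7a and Ppp1r14c, which were higher. The 6 genes were picked from the 17348 genes of the deposited table because earlier looks at the same counts had shown their genotypes apart with a small spread, and all 6 were among the 13340 genes abundant enough to test. The separation of these genes is therefore how they were chosen and is not a finding, and no test of the genotype difference is given for them. What follows describes their levels, how they vary, how their relatives behaved and which other genes ran alongside them.

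RNA came from dissected cortex of E13.5 embryos, and 3 libraries were sequenced for each genotype. Ybx1 is an RNA-binding protein that reads 5-methylcytosine in mRNA. In cKO embryos floxed Ybx1 alleles are removed where Nestin-Cre is active, mainly in neural progenitors and the cells born from them. Whether vessels, meninges, blood and microglia kept the gene was not tested here. The labels call the controls WT and the study describes them as littermates, elsewhere defining its control genotype as Ybx1 fl/fl without Cre. The floxed line was made in C57BL/6J mice. By that definition only cKO embryos carried the Cre transgene, so that its presence and the loss of Ybx1 cannot be told apart. The sources used here do not say how many embryos went into a library.

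The genes do not form a pathway. Pgap1 encodes an endoplasmic reticulum enzyme that trims the lipid anchor (GPI) by which many proteins are tethered to the cell surface. Nkiras2 encodes a Ras-like protein that holds back NF-κB and Ral signaling, Arl5b a small GTPase of the trans-Golgi network, and Asb1 a substrate receptor of a Cullin ubiquitin ligase. Thsd7a encodes a large membrane protein built of thrombospondin type 1 repeats, known from endothelial cells and kidney podocytes, and Ppp1r14c an inhibitor of protein phosphatase 1.

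Library totals lay between 15907491 and 16282929 estimated counts, and levels are given as CPM, the counts scaled to a common library size after TMM correction for composition. Values of single libraries follow the order of replicates 1, 2 and 3. Ybx1 itself stood at 1021, 528 and 1220 CPM in WT and at 83.1, 117 and 147 in cKO, so that the library labelled WT replicate 2 held less than the other WT libraries. Radial glia, intermediate progenitor and cortical neuron markers were all above 0 in every library, but their sums differed. Radial glia markers summed to 1809 CPM in WT replicate 1 and 1772 in cKO replicate 1, against 2372 to 2629 elsewhere. Cortical neuron markers were highest in the same libraries (5882 and 6080 CPM, against 4840 to 5523 elsewhere). In cKO replicate 3 the epidermis list summed to 255 CPM and the meninges and mesenchyme list to 559, against at most 1.94 and 48.2 elsewhere. In bulk tissue, fewer cells that express a gene and less of its RNA per cell cannot be told apart.

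Genes whose genotypes did not overlap made up 9.04% of those tested. With 3 libraries of each genotype, some genes lie apart by the order of libraries alone. The share is therefore a background and no measure of a genotype effect. Of the genes tested, 562 had all cKO libraries above all WT libraries (4.21%) and 644 had them below (4.83%), 1206 in all. The 6 genes are part of that set by choice, and their direction was the same in CPM, in counts divided by the library total and in the authors' TPM values, in each of which all 6 remained apart. The quasi-likelihood test of edgeR called 0% of the genes higher and 0% lower after adjustment (p below 0.05). Ybx1, the deleted gene, was also not called in that test (adjusted p 0.128). Its highest cKO library (147 CPM) nevertheless lay below its lowest WT library (528 CPM). A gene that misses the adjusted threshold is therefore not shown to be unchanged. Before adjustment the edgeR test called 1.75% higher (234 genes) and 1.81% lower (242), whereas DESeq2 called 2 genes in each direction after adjustment. Higher genes made up 49.2% of the unadjusted calls, and 65.4% when counts were scaled by library totals only.

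A small spread described only some of the 6 genes. Spread was measured as the pooled standard deviation of log2 CPM within the genotypes, whose median was 0.142 over all genes tested and 0.0742 over the 1206 separated genes. Arl5b was the tightest at 0.0346, followed by Nkiras2 at 0.0627, Asb1 at 0.0702 and Pgap1 at 0.0905. Ppp1r14c at 0.203 and Thsd7a at 0.262 were more variable than the median gene tested. Among genes within 2-fold of their own mean level, 96.6% had a larger spread than Arl5b and 57.1% a larger spread than Pgap1, but 35.9% did so for Thsd7a and 17.9% for Ppp1r14c. Set against separated genes of like level, Arl5b lay below their median spread (0.0512). Pgap1 (median 0.0494), Nkiras2 (0.0562), Asb1 (0.0616), Thsd7a (0.125) and Ppp1r14c (0.07) lay above theirs. The name "low-variance" therefore does not hold for the 2 higher genes. Against separated genes of like level it holds only for Arl5b. Against the median of all 1206 separated genes (0.0742) it also holds for Nkiras2 and Asb1, but not for Pgap1.

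The distance between the genotypes is what the choice of the 6 genes rested on, and its size is given as a description. The gap, taken from the nearest WT library to the nearest cKO library in log2 CPM, was 0.20 for Pgap1, 0.21 for Nkiras2, 0.20 for Arl5b, 0.23 for Asb1, 0.62 for Thsd7a and 0.23 for Ppp1r14c. Divided by the spread it came to 5.89 for Arl5b, 3.41 for Nkiras2, 3.32 for Asb1, 2.37 for Thsd7a, 2.23 for Pgap1 and 1.15 for Ppp1r14c. Other separated genes had larger ratios, 24 of them than Arl5b and 311 than Ppp1r14c.

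**Figure D1:**
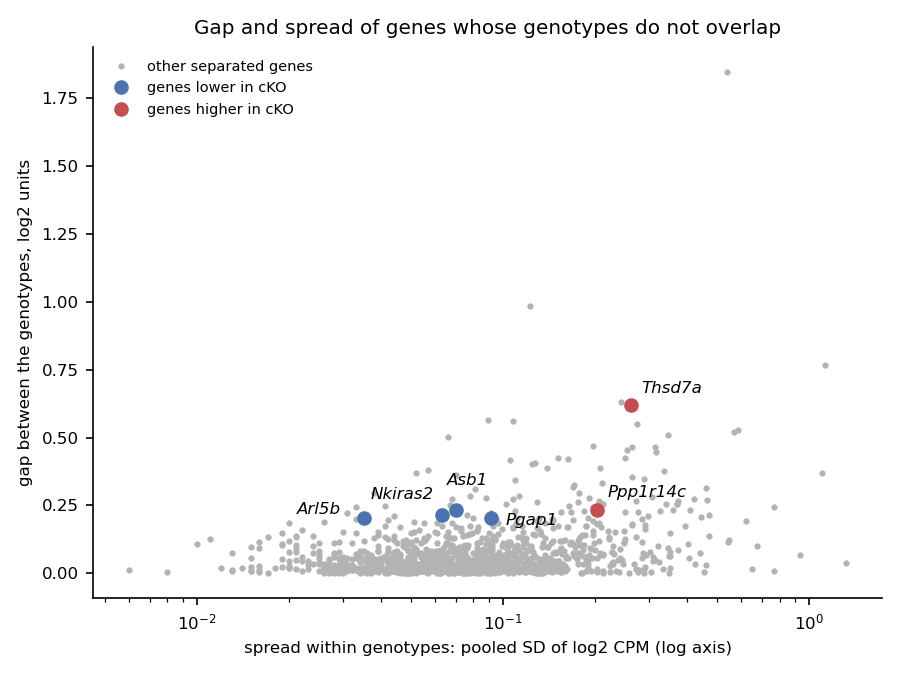
Each point is one of the 1206 genes whose genotypes did not overlap, with the pooled SD of log2 CPM within genotypes on the x axis (log scale) and the gap between the nearest WT and cKO libraries in log2 units on the y axis. The 4 lower genes sit at gaps of 0.20 to 0.23 and at spreads of 0.0346 to 0.0905, whereas Thsd7a and Ppp1r14c lie at larger spreads of 0.262 and 0.203.

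Levels between genes were compared in TPM, which accounts for transcript length. In WT the order was Nkiras2 (85.8 ± 5.71 TPM, SD, n = 3), Pgap1 (48.1 ± 4.45), Arl5b (39.8 ± 2.93), Ppp1r14c (20.1 ± 1.81), Asb1 (19.5 ± 1.16) and Thsd7a (0.673 ± 0.142). The libraries of Ppp1r14c (18.8 to 22.1 TPM) and Asb1 (18.7 to 20.9) overlapped, and those of the other neighbours in this order did not. In cKO the libraries of Ppp1r14c (25.7 to 38.0 TPM) overlapped with those of Pgap1 (33.5 to 41.9) and Arl5b (32.2 to 34.5), which also overlapped with each other. Asb1 (14.3 to 16.7 TPM) then lay apart from Ppp1r14c.

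Pgap1 (Entrez gene 241062, GRCm38 chromosome 1, 54472994 to 54557684, minus strand) removes the acyl chain from the inositol of newly attached GPI anchors, a step needed for efficient export of GPI-anchored proteins. It gave 248, 232 and 227 CPM in WT and 197, 170 and 182 CPM in cKO. The genotypes did not overlap, and replicate 1 was the highest library of each. The mean was 236 ± 10.9 CPM in WT and 183 ± 14.0 in cKO (SD, n = 3 each), 22.4% lower, with a log2 fold change of -0.37 (standard error, SE, 0.08). With 3776 counts per WT library, counting error alone gives a coefficient of variation of 1.63%, and the measured one was 4.63%.

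The other genes of GPI anchor synthesis and remodelling lay around 0. Of 32 tested, 0 passed unadjusted p below 0.05 in either direction in the edgeR test, and their median log2 fold change was 0.02, beside 0.002 over all genes tested. Pgap2 and Pgap3 act after Pgap1, in the Golgi, where they exchange a fatty acid of the anchor. Pgap2 stood at 25.7 ± 1.19 CPM in WT and 26.2 ± 0.26 in cKO (SD, n = 3 each). Pgap3 had the lowest fold change of the list, -0.23 on the log2 scale (SE 0.15), and its genotypes overlapped.

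Nkiras2 (Entrez gene 71966, chromosome 11, 100619244 to 100627607, plus strand) binds the inhibitors of NF-κB and slows their breakdown. Its level was 72.2, 69.2 and 73.9 CPM in WT and 54.0, 59.7 and 58.0 in cKO. WT replicate 2 was the lowest control and still lay above every cKO library. Means were 71.8 ± 2.39 and 57.2 ± 2.92 CPM (SD, n = 3 each), 20.3% lower in cKO, with a log2 fold change of -0.33 (SE 0.07). Its counts were not whole numbers (1150.16 in WT replicate 1), as can happen where reads also match transcripts of another gene. The annotation places 287 of its exon bases (8.02%) over exons of Dnajc7 on the opposite strand, and whether counting used strand is not given in the sources used here. Dnajc7, a chaperone gene named here for that overlap, had a log2 fold change of -0.05 (SE 0.07).

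The paralog Nkiras1 had 10.4, 11.1 and 11.3 CPM in WT and 12.2, 10.4 and 11.6 in cKO, so that its genotypes overlapped, with a log2 fold change of 0.06 (SE 0.11). Of 27 NF-κB and Ral regulators tested, 1 was higher and 0 were lower at unadjusted p below 0.05, and the median log2 fold change was -0.002. The higher gene was Nfkb1, which encodes the p105 precursor of an NF-κB subunit. It stood at 27.6 ± 0.932 CPM in WT and 33.5 ± 0.307 in cKO (SD, n = 3 each). Its log2 fold change was 0.28 (SE 0.08). In the edgeR test the adjusted p was 1 (unadjusted 0.00625).

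Arl5b (Entrez gene 75869, chromosome 2, 15049395 to 15082456, plus strand) belongs to the ARF-like GTPases and helps recruit the GARP tethering complex that receives vesicles returning from endosomes. It gave 128, 121 and 127 CPM in WT and 105, 105 and 102 CPM in cKO. The cKO libraries were almost equal to each other and all lay below WT. Means were 125 ± 3.90 and 104 ± 1.34 CPM (SD, n = 3 each), 17.1% lower in cKO, the smallest difference of the 6, with a log2 fold change of -0.27 (SE 0.06). The coefficient of variation among cKO libraries was 1.29%, below the 2.44% that counting error alone gives at 1682 counts.

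Arl5b overlaps Nsun6, a gene for an RNA 5-methylcytosine methyltransferase, on the opposite strand, but they share 0 exon bases. Nsun6, named for that overlap, ranged from 23.3 to 25.2 CPM in WT and from 23.6 to 24.8 in cKO, with a log2 fold change of -0.01 (SE 0.08). The close paralog Arl5a stood at 188 ± 8.56 CPM in WT and 179 ± 7.89 in cKO (SD, n = 3 each) with overlapping genotypes, a log2 fold change of -0.07 (SE 0.07). Arl5c was at most 0.483 CPM in any library and was not tested. Of 32 ARF-like GTPases and trans-Golgi tethers tested, 0 passed unadjusted p below 0.05 in either direction.

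Asb1 (Entrez gene 65247, chromosome 1, 91540544 to 91559589, plus strand) carries ankyrin repeats that bind substrates and a SOCS box that docks to Elongin and Cullin-5. It stood at 52.8, 52.5 and 50.6 CPM in WT and at 43.0, 41.9 and 38.0 in cKO. The WT libraries were closely grouped, with a coefficient of variation of 2.31% where counting alone gives 3.47%, and cKO replicate 3 was the lowest library. Means were 51.9 ± 1.20 and 41.0 ± 2.62 CPM (SD, n = 3 each), 21.1% lower, with a log2 fold change of -0.34 (SE 0.08). Of 20 SOCS box and Cullin-5 ligase genes tested, 0 were higher and 1 was lower at unadjusted p below 0.05. That gene was Socs4, a related SOCS box adaptor, at 20.9 ± 1.23 CPM in WT and 17.9 ± 1.05 in cKO (SD, n = 3 each). In the edgeR test the adjusted p was 1 (unadjusted 0.0459).

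Thsd7a (Entrez gene 330267, chromosome 6, 12311610 to 12749410, minus strand) was the least abundant gene and had the largest fold change. It had 57, 44 and 64 counts in WT and 111, 99 and 145 in cKO, or 3.58, 2.73 and 4 against 6.93, 6.21 and 8.75 CPM. The lowest cKO count, 99, has an exact 95% Poisson interval from 80.5 to 121. The highest WT count, 64, has one from 49.3 to 81.7. The intervals overlap at their ends, which does not show that the counts agree within counting error. Since PCR copies of a molecule were not marked, these intervals describe counting error only. The mean was 3.44 ± 0.649 CPM in WT and 7.29 ± 1.31 in cKO (SD, n = 3 each), 2.12 times as high, with a log2 fold change of 1.09 (SE 0.21). The highest library was cKO replicate 3, the one with epidermis and mesenchyme transcripts. Without it the log2 fold change was 0.93, and without both it and WT replicate 2 it was 0.79. Endothelial markers, 6 of 6 above 0 in every library, summed to 68.7 to 94.0 CPM in WT and 76.7 to 97.6 in cKO.

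Thsd7b, the closest relative of Thsd7a, lay on the other side. It stood at 8.54, 8.36 and 8.38 CPM in WT and at 6.68, 6.15 and 7 in cKO, and its genotypes did not overlap either. Its log2 fold change was -0.35 (SE 0.12). In the edgeR test the adjusted p was 1 (unadjusted 0.0198). It was the only one of 41 thrombospondin repeat genes tested to pass the unadjusted threshold. Thsd7b was 2.95 TPM in WT and 2.33 in cKO, so that its level per transcript length was above that of Thsd7a in both genotypes, where Thsd7a had 0.673 and 1.44 TPM.

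Ppp1r14c (Entrez gene 76142, chromosome 10, 3366057 to 3464975, plus strand) encodes an inhibitor of protein phosphatase 1 that becomes potent when protein kinase C phosphorylates it. It gave 19.1, 21.4 and 24.2 CPM in WT and 39.2, 28.5 and 32.5 in cKO. The genotypes did not overlap, although both were spread widely, with coefficients of variation of 11.8% and 16.3% where counting alone gives 5.38% and 4.30%. Means were 21.6 ± 2.55 and 33.4 ± 5.45 CPM (SD, n = 3 each), 1.55 times as high in cKO, with a log2 fold change of 0.63 (SE 0.14). It was 0.51 without cKO replicate 1, the highest library, and 0.73 without cKO replicate 2. The annotation places 765 exon bases (29.2%) of Ppp1r14c over the long non-coding RNA Gm26752 on the opposite strand, and reads of these could not be told apart if counting ignored strand.

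Of the close relatives of Ppp1r14c, Ppp1r14b, the most abundant of the family at 609 TPM in WT and 680 in cKO, differed by 0.16 on the log2 scale (SE 0.11). Ppp1r14a differed by 0.11 (SE 0.21), and both genes overlapped between the genotypes. Of 24 genes of protein phosphatase 1 and myosin phosphatase control tested, 0 were higher and 1 was lower at unadjusted p below 0.05. That was Myh10, the heavy chain of non-muscle myosin IIB, at 618 ± 6.68 CPM in WT and 533 ± 25.2 in cKO (SD, n = 3 each). Its log2 fold change was -0.22 (SE 0.07). In the edgeR test the adjusted p was 1 (unadjusted 0.0179).

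**Figure D2:**
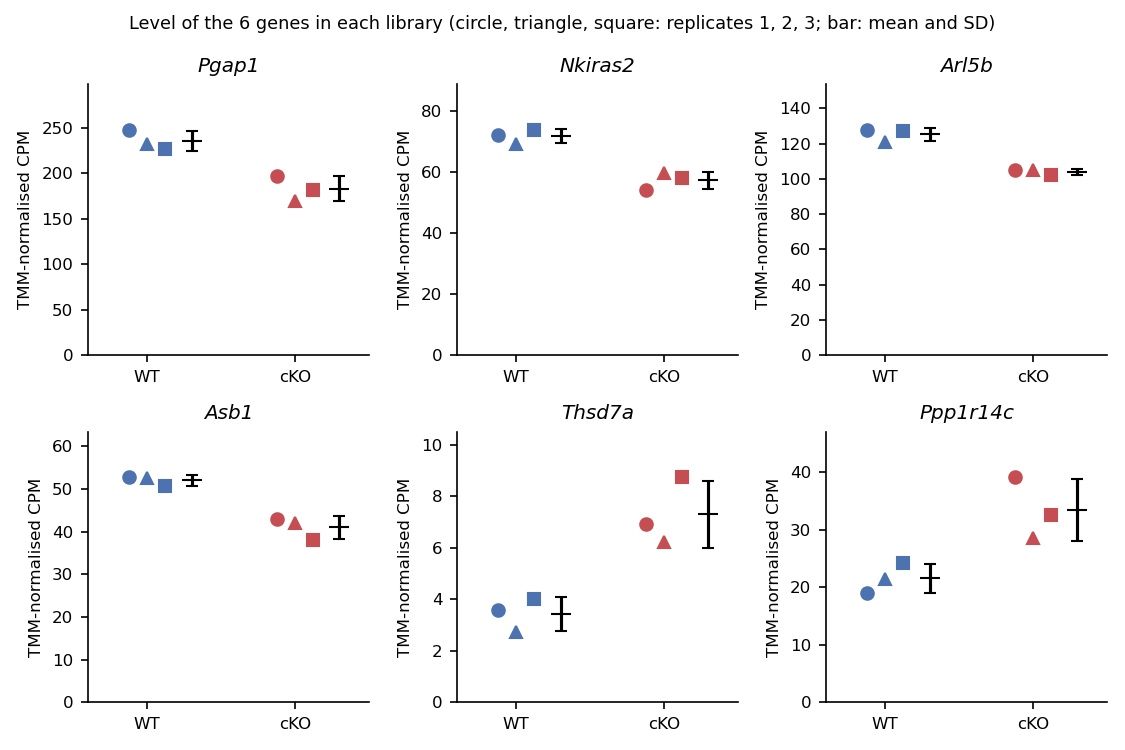
Each panel shows 1 gene in TMM-normalised CPM on the y axis, with the 3 WT and 3 cKO libraries on the x axis (circle, triangle and square for replicates 1, 2 and 3) and the mean with its SD beside them. The cKO points of Arl5b nearly coincide at 102 to 105 CPM, whereas those of Ppp1r14c range from 28.5 to 39.2.

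Ybx1 takes its name from the Y-box, a promoter element with the letters CCAAT or, on the other strand, ATTGG. These letters were searched on both strands in RefSeq promoters of GRCm38.p6 (250 bases before to 50 bases after the annotated start), in which all 6 genes were found. Both higher genes held them and none of the 4 lower genes did, including Asb1 with 2 annotated starts. Among tested genes with a promoter in that collection, 43.5% held the letters, beside 2 of these 6. The split by direction was not tested. The study reports Ybx1 mostly in the cytoplasm of cultured neural progenitors and says that a role in transcription may be questionable there. The windows are shown because they carry the match, which stands in capitals. It begins 212 bases before the RefSeq start of Thsd7a (12749253) and 112 bases before that of Ppp1r14c (3366150). The GENCODE gene starts given above lie elsewhere, and the match begins 55 and 19 bases before those.
Thsd7a, chr6:12749449-12749477, minus strand: atgatgccttttATTGGtgtatccttgtg
Ppp1r14c, chr10:3366026-3366054, plus strand: tcaattttcttcCCAATcctacagaggaa

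To ask which genes ran most like each of the 6, levels were centred on their mean over the 6 libraries in log2 CPM, and the genes with the smallest root mean square difference were taken from 11007 genes with a mean of at least 5 CPM. Genes whose genotypes lie apart by a like amount come out near by construction, so the nearness is given as a description. Nearest to Nkiras2 was Eef2, translation elongation factor 2, at a difference of 0.023. Eef2 gave 2422, 2304 and 2491 CPM in WT and 1751, 1987 and 1875 in cKO. Like Nkiras2, it was lowest in WT replicate 2 and cKO replicate 1 within its genotypes. The second was Ppp1r16a, a regulatory subunit of protein phosphatase 1 (0.035). Arl5b ran with the zinc finger gene Zfp704 (0.030) and the giant cadherin gene Fat4 (0.032). Pgap1 ran with the pyridoxal kinase gene Pdxk (0.046) and with Fam71e1 (0.048), and Asb1 with the cell cycle arrest gene Rprm (0.045) and again with Pdxk (0.055). Among the 4 lower genes themselves the difference was smallest between Nkiras2 and Arl5b (0.056) and largest between Pgap1 and Nkiras2 (0.118).

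The genes nearest to both higher genes included markers of inhibitory neurons. For Thsd7a they were Sst, which encodes the neuropeptide somatostatin (0.170), and the transcription factor gene Tfap2d (0.271). For Ppp1r14c they were Gad1, the gene of a GABA-synthesising enzyme (0.135), and Spry2, a feedback inhibitor of growth factor signaling (0.165). Sst stood at 9.67, 7.75 and 9.25 CPM in WT and at 20.3, 19.3 and 19.7 in cKO. Gad1 stood at 8.79, 7.37 and 10.1 CPM in WT and at 15, 10.5 and 13.4 in cKO. Gad1 and Ppp1r14c had the same order of libraries in cKO but not in WT, where replicate 2 was lowest for Gad1 and replicate 1 for Ppp1r14c.

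The interneuron list is given here because it holds Sst and Gad1. Its 10 genes, all above 0 in every library, summed to 84.7, 75.6 and 128 CPM in WT and to 153, 159 and 152 in cKO. Of its 9 genes tested, 9 had a fold change above 0, 4 had all cKO libraries above WT (4.21% of all genes tested) and 6 were higher at unadjusted p below 0.05 in the edgeR test (1.75% of all). The median log2 fold change of the list was 0.74, beside 0.002 over all genes tested, and the lists and counts were chosen with these data known. Sst and Gad1, which led to the list, are among the 9 tested and among the 4 that lay apart. The counts and the median are therefore partly set by that choice. WT replicate 3 had the largest sum of the controls and also the highest WT level of Thsd7a and of Ppp1r14c, whereas among cKO libraries the sum was nearly flat while Ppp1r14c ranged from 28.5 to 39.2 CPM. The part of interneurons in the levels of Thsd7a and Ppp1r14c was not tested.

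**Figure D3:**
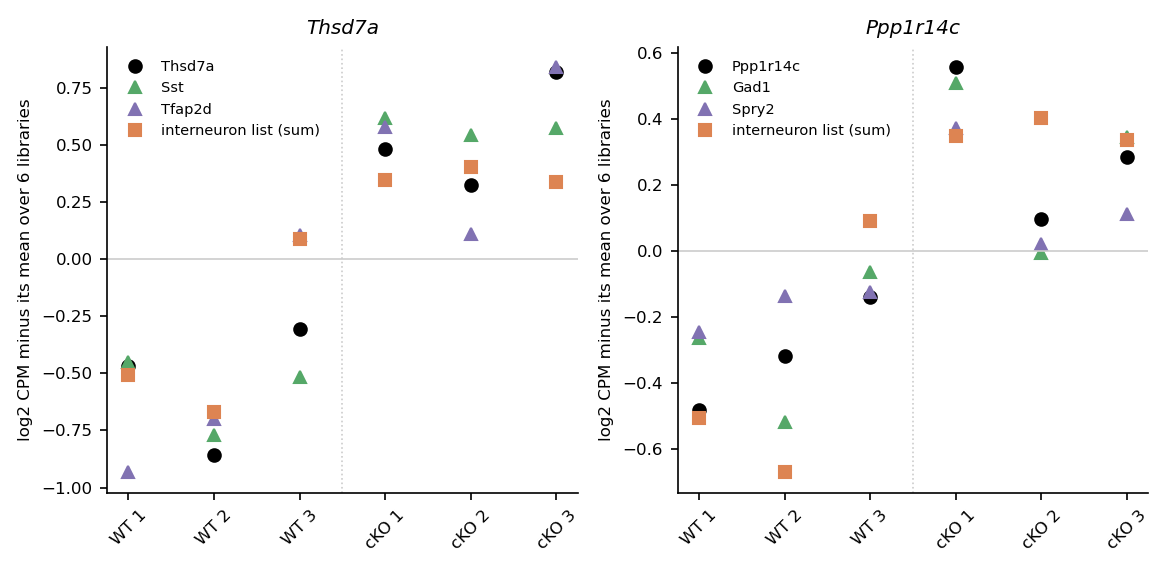
For Thsd7a (left) and Ppp1r14c (right), the y axis gives log2 CPM minus its mean over the 6 libraries on the x axis, for the gene (black), its 2 nearest genes (triangles) and the summed interneuron list (squares). The interneuron sum is higher in every cKO library (152 to 159 CPM) than in every WT library (75.6 to 128 CPM), and WT replicate 3 lies closest to cKO.

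The library labelled WT replicate 2 had less Ybx1 than the other controls, and the 6 genes were read against this. On a scale where the mean of WT replicates 1 and 3 is 0% and the cKO mean 100%, Ybx1 lay at 59.0% in that library. Arl5b lay at 28.3%, Nkiras2 at 24.4% and Pgap1 at 10.1%, on the cKO side of the other controls. Ppp1r14c at -2.25%, Asb1 at -7.64% and Thsd7a at -30.4% lay on the far side. Since the 6 genes were chosen with that library apart from cKO, these positions are a description and their distance from cKO follows from the choice.

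Over the 6 lists of relatives together, 176 genes were tested, and their counts were near those of all genes. At unadjusted p below 0.05, 1 was higher (0.568%, against 1.75% of all genes tested) and 3 were lower (1.70%, against 1.81%). In 8 of them the cKO libraries all lay above WT (4.55%, against 4.21%) and in 7 below (3.98%, against 4.83%). None passed adjusted p below 0.05 in edgeR, DESeq2 or limma-voom. Since Ybx1 itself did not pass in edgeR, the absence of calls there does not show that the relatives were unchanged. The 6 genes were chosen for their difference and the relatives were not, so nothing is read from setting one against the other. The lowest log2 fold changes among the relatives were -0.23 for GPI genes, -0.31 for NF-κB and Ral regulators, -0.19 for ARF-like genes and -0.22 for SOCS box genes. The thrombospondin list reached 2.07 for Ccn4 (SE 0.94), whose genotypes overlapped. The phosphatase list reached 1.39 for Myl9 (SE 0.62), whose genotypes did not. These lay above Thsd7a and Ppp1r14c, and Ccn4 and Myl9 are named for these extremes after their values were seen. Their values without cKO replicate 3, the library with epidermis and mesenchyme transcripts, are not given here.

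**Figure D4:**
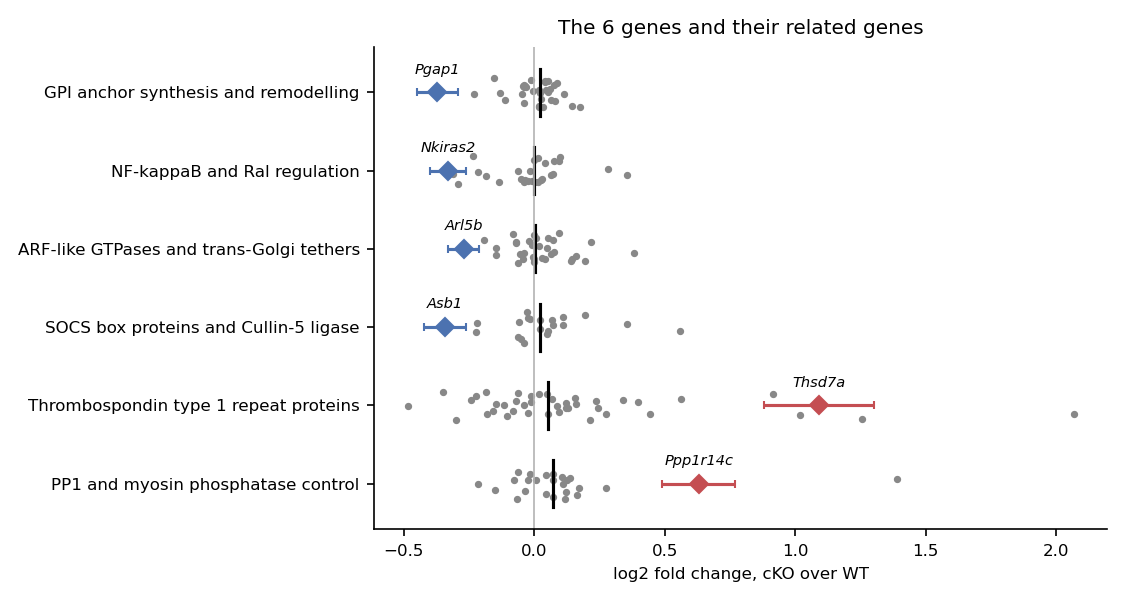
Log2 fold change of cKO over WT on the x axis for each gene (coloured diamonds with standard error) and the tested genes of its list (grey points, black line at their median). List medians lie between -0.002 and 0.072. The diamonds were chosen for their distance from 0 and the grey points were not.

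The fold changes of the 6 genes kept their sign in all 14 alternative fits. When single libraries were left out they ranged from -0.42 to -0.32 for Pgap1, from -0.36 to -0.28 for Nkiras2, from -0.30 to -0.25 for Arl5b and from -0.37 to -0.29 for Asb1. Ppp1r14c ranged from 0.51 to 0.73 and Thsd7a from 0.93 to 1.21. Since the genes were chosen on these same libraries, a constant sign follows from the choice. On the log2(TPM + 1) scale Thsd7a was at 0.54, because adding 1 to values near 1 TPM shrinks the fold change.

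**Figure D5:**
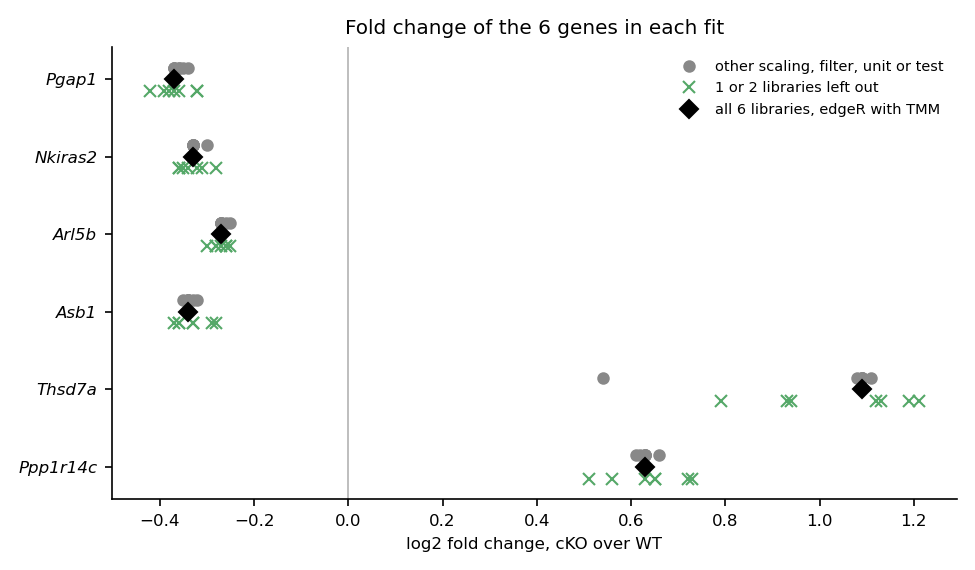
Log2 fold change of cKO over WT on the x axis for each gene, from all 6 libraries with TMM scaling (diamond), with 1 or 2 libraries left out (crosses) and under other scaling, filters, units or tests (grey circles). The 4 lower genes stay between -0.42 and -0.25, and Thsd7a moves most, from 0.54 to 1.21.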

How the data were processed

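Cortical RNA of 3 WT and 3 cKO E13.5 libraries was compared, with genotype and replicate number read from the titles. Columns named Ctrl were matched to WT titles by number. The authors extracted RNA with Trizol and sequenced it on DNBSEQ. The submitters' processing notes name HISAT2 2.2.1, Bowtie2 2.4.5 and RSEM 1.3.1 and the builds GRCm38 and mm10, without saying which made which value. The authors deposited expected counts, not scaled for depth (10.9% of values are not whole), which were rounded here. The authors also deposited TPM, scaled for transcript length. The annotation and strand setting are not given in the sources used here. FPKM values were deposited by the authors and not used, nor were the authors' group means.

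Genes were kept by filterByExpr (minimum count 10, minimum total 15), and genotype was fitted with edgeR 4.0.16 (quasi-likelihood, TMM factors 0.987 to 1.03, R 4.3.3), with Benjamini-Hochberg adjustment over 13340 genes. A standard error is the log2 fold change divided by the square root of F. Log2 CPM used a prior count of 2. DESeq2 1.42.0, limma 3.58.1 (voom, and log2(TPM + 1)), other factors, no filter, a replicate block and left-out libraries were alternatives. The fits were also run on data simulated with planted changes, as a check of the code whose outcome is not given here. That check does not show how many true changes these libraries could reveal. Gene positions are GENCODE M21 (GRCm38).

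The 6 genes, the lists of relatives and the tests were chosen with earlier results of these data known. Besides the 6 genes, Ybx1 and paralogs, named genes are those of each list with an unadjusted p-value under 0.05 (at most 3) and the 2 nearest genes of each of the 6. Others are named with the reason. The series text calls the replicates biological but names no litters, so p-values measure the spread between these libraries. The series has 3 sequencing batches, but which library belongs to which is not given in the sources used here, so batch could not be modelled.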

Additional observations from a re-analysis of the deposited data

How the results depend on the processing

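Of 84 values of the 6 genes over 14 alternative fits, 82 moved by less than 1 SD between replicates and none changed sign. The exceptions were Thsd7a on the log2(TPM + 1) scale (0.54) and without both WT replicate 2 and cKO replicate 3 (0.79). With single libraries left out Thsd7a ranged from 0.93 to 1.21. All 6 genes remained apart with RLE factors, library totals and TPM. They were chosen for being apart in these same libraries, so this and the constant sign are a description only.

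Counts of genes moved more. After adjustment (p below 0.05), genes higher in cKO numbered 0, and 2 with DESeq2, 1 without both libraries and 0 to 1 (without WT replicate 2) when single libraries were left out. Genes lower in cKO numbered 0, with 2, 1 and 0 to 1 in the same settings. At unadjusted p below 0.05, higher genes numbered 234, and 390 with no filter, 148 with DESeq2, 105 without both libraries and from 121 (without WT replicate 3) to 571 (without cKO replicate 1) when single libraries were left out. Without cKO replicate 3 there were 138. Lower genes numbered 242, and 141 without both libraries and from 118 (without WT replicate 3) to 482 (without cKO replicate 1). The share of higher genes among these calls was 49.2%, but 65.4% with library totals only and 60.0% with no filter.

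Related genes higher at unadjusted p below 0.05 numbered 1, and 4 with library totals only, 3 each with no filter, DESeq2 and log2(TPM + 1), 0 without both libraries and from 1 to 11 (without cKO replicate 1) with single libraries left out. Lower ones numbered 3, and 1 with DESeq2 and from 0 (without WT replicate 3) to 7 (without cKO replicate 1) with single libraries left out. The median log2 fold change of the NF-κB and Ral list was -0.002, and 0.023 with library totals only and -0.023 to -0.003 with single libraries left out. That of the thrombospondin list was 0.053, and -0.092 without both libraries and -0.026 to 0.176 with single libraries left out. That of the phosphatase list was 0.072, and 0.026 to 0.057 with single libraries left out. The cause was not tested for any of these shifts.

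No pairing by number was assumed in the values above, because libraries of equal number shared their deviations only in part. The correlation over genes of their deviations from the genotype means was 0.41 for replicate 1, 0.31 for replicate 2 and -0.02 for replicate 3, and WT replicate 3 correlated best with cKO replicate 2 (0.26). Fitting the replicate block called 1 gene upward and 1 downward after adjustment, 476 upward and 614 downward before it, and 5 related genes were higher and 6 lower unadjusted.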
